A study of Mus musculus with 6 samples.

Results

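The smooth muscle cells of the Tbx18 line were examined as the cells that carry cluster number 1 in the authors' integrated data of this mouse line. There were 937 of them among the 6578 deposited cells of the line and the 17033 cells of the series. Of these, 63 came from naïve mice, 827 from mice with a physical injury and 47 from mice with an ischemic injury. All were tdT+/DAPI- live cells sorted from the cerebral cortex of Tbx18-CreERT2/Ai14-flx mice aged 3 to 4 months that had received tamoxifen. Physical injury was an intracerebral saline injection. Ischemic injury was an injection of ET-1/L-NAME, a vasoconstrictor peptide with an inhibitor of nitric oxide synthesis. Injured mice received tamoxifen 7 days before the injection and were sampled 3 days after it. In this line a tamoxifen-dependent Cre under control of Tbx18, a T-box transcription factor gene of mural cells, switches on the red protein tdTomato in the cells that express it and in their descendants. Several animals of both sexes were pooled into 1 droplet library per condition. There is no replicate, so no test between conditions was possible, and every interval below covers counting error only. The NG2 line (NG2-Cre-ERT2/Ai14-flx), treated and sampled in the same way, is used beside it where it shows a difference.

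Vascular smooth muscle cells wrap arteries, arterioles and larger veins of the brain and set vessel diameter. Calcium entering through voltage-gated channels activates myosin light chain kinase, which makes smooth muscle myosin pull on actin, while nitric oxide acting through cyclic GMP relaxes the cell and endothelin constricts it. Under the serum response factor and its partner myocardin the genes of the contractile apparatus are transcribed from CArG boxes, and after vessel injury the cells are known to lower this programme and to make matrix and migration proteins, a state called modulated. Pericytes are the mural cells of capillaries and share many transcripts with smooth muscle cells.

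The promoters of Acta2 and Myl9 are shown because CArG boxes stand just before their RefSeq start sites. Of the other 4 marker genes, Cnn1 and Des held no such letters in the same window, and Tagln and Myh11 were not examined here. The sequences are the 250 bases before the RefSeq start of each gene (GRCm38.p6), in the direction of the gene, with boxes in capitals. Acta2 (smooth muscle actin) lies at chr19:34241090-34255590 on the minus strand and its promoter at chr19:34255374-34255623. Myl9 (regulatory myosin light chain) lies at chr2:156775420-156781658 on the plus strand and its promoter at chr2:156775214-156775463. The gene spans are from GENCODE and begin ahead of the RefSeq starts used here. Each promoter therefore overlaps its span, and both Acta2 boxes lie inside the span of Acta2.
Acta2: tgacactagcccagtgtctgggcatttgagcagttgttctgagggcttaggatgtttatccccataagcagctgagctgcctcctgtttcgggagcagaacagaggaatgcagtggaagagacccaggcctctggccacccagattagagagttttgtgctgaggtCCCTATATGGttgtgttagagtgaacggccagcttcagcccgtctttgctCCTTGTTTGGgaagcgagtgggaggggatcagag
Myl9: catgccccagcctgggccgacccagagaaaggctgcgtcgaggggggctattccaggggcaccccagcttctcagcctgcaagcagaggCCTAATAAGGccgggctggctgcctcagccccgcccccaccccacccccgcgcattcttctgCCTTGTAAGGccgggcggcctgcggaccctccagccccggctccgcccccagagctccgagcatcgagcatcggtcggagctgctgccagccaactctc
In Acta2 both boxes, from 84 to 75 and from 34 to 25 bases before the start, have 5 of their 6 central bases as A or T. In Myl9 the box from 161 to 152 bases before the start has 6 of 6, and the one from 99 to 90 has 5. The motif reads the same on both strands, so no separate search of the other strand was needed. With at most 1 departure in the centre, it was found in 5 of the 18 contractile genes with a promoter in the table (27.8%), in 4 of 15 immediate early genes (26.7%), in 0 of 6 pericyte genes and in 9.78% of all 27025 promoters. With none, the counts were 3, 1 and 0, and 1.62% of all promoters. A match of letters describes the sequence and is not evidence of binding.

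The label was first set beside the cells' own transcripts. A level here is the count of unique molecules (UMIs) of a gene summed over the smooth muscle cells of a library, per 1000000 UMIs of these cells (CPM). Acta2 was at 8126 CPM (7876 to 8382) in the naïve, 13573 CPM (13496 to 13651) in the physical injury and 11620 CPM (11172 to 12081) in the ischemic injury library. In the endothelial cells of the same libraries, cluster 0, Acta2 was at 460, 40.3 and 4.05 CPM. Tagln (transgelin, an actin-binding protein) was at 6540, 10105 and 9024 CPM, and Myh11 (smooth muscle myosin heavy chain) at 3320, 4579 and 2994 CPM. These 3 genes were abundant in all 3 libraries, with Acta2 and Tagln lowest in naïve and Myh11 lowest in ischemic cells. Myl9 was at 3816, 6793 and 4917 CPM and Des (desmin) at 482, 606 and 522 CPM. Cnn1 (calponin), a gene of the mature contractile cell, was at 44.9, 237 and 114 CPM. The 6 markers together took 22329, 35893 and 29192 CPM. The clusters were formed on expression that includes these genes, so these levels describe the label and are no independent check of it. The nearest naïve cells were those of cluster 4, the vascular-genic pericytes of the study. Acta2 was there at 3512 CPM and Tagln at 2386 CPM. The name was kept for each library as a whole.

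Within the libraries the cells were less alike. Pericyte markers (Vtn, Abcc9, Kcnj8, Atp13a5, Rgs5, Ndufa4l2, Higd1b and Cspg4) together took 7975 CPM in naïve cells, 2827 CPM after physical injury and 8438 CPM after ischemia, led in each by Rgs5, a regulator of G protein signalling. Per cell, the median share of UMIs from these 8 genes was 0.817%, 0.185% and 1.13%. They exceeded the 6 smooth muscle markers in 25 of 63 naïve cells (39.7%, 27.6 to 52.8), in 10 of 827 physical injury cells (1.21%) and in 8 of 47 ischemic cells (17.0%). The naïve and ischemic groups thus held cells with more pericyte than smooth muscle transcripts, which were rare after physical injury. Assigned by its own marker lists, each cell counted as smooth muscle in 49 of 63, 826 of 827 and 43 of 47 cases. In the authors' separate integration of both naïve libraries, 46 of the 63 naïve cells were in cluster 4, 13 in cluster 5 and 4 in cluster 6. These clusters held 47, 47 and 246 Tbx18 cells. Their numbers are given as deposited and were not matched to the cluster names of the paper. In the NG2 line the share with more pericyte than smooth muscle transcripts was 19.1% in naïve, 16.5% in physical and 15.5% in ischemic cells.

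**Figure D1:**
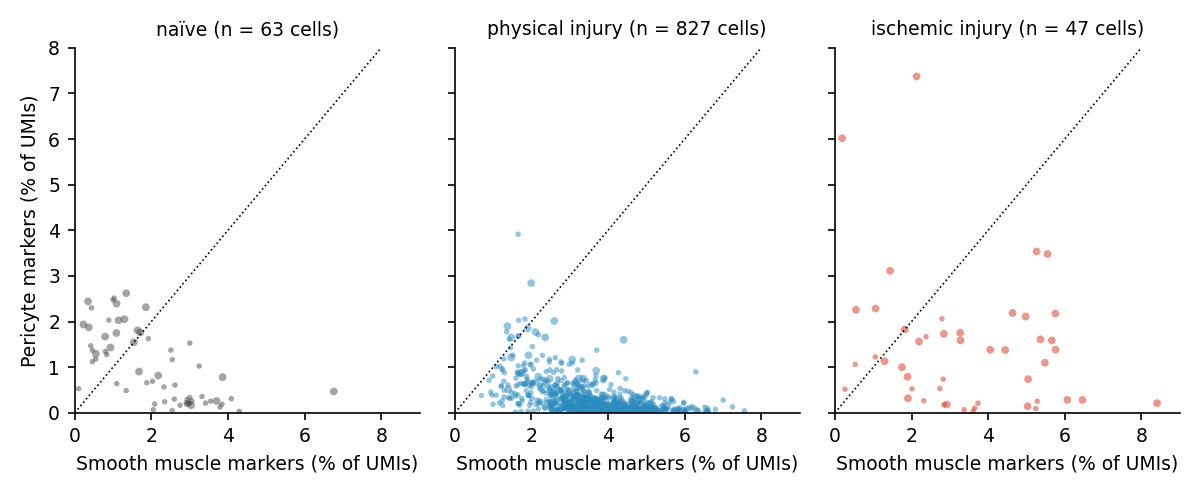
Smooth muscle cells of the Tbx18 line, 1 point per cell, in 3 panels for the libraries: UMIs from the 6 smooth muscle markers (x axis) against UMIs from the 8 pericyte markers (y axis), both in % of the cell's UMIs. Points above the dotted line of equality make up 39.7% in the naïve, 1.21% in the physical injury and 17.0% in the ischemic panel.

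Other cell types left few transcripts. Endothelial markers summed to 77.5, 223 and 1149 CPM, and 95.2% of the ischemic value came from 1 cell with 16780 UMIs. Fibroblast markers summed to 133, 131 and 169 CPM, mostly from Col1a2, with Dcn, Lum and Pdgfra at 0 in naïve and ischemic cells. Neuronal markers, mostly the non-coding Meg3, summed to 167, 88.8 and 105 CPM, with Snap25, Rbfox3 and Gad1 at 0 in all 3 libraries. Microglial markers summed to 20.4, 28.5 and 45.8 CPM. Astrocyte markers were at 8.16, 9.62 and 27.5 CPM, oligodendrocyte markers at 12.2, 9.62 and 13.7 CPM, and granulocyte markers had 0 UMIs in naïve and ischemic cells. Markers of oligodendrocyte precursors were at 0, 9.50 and 4.58 CPM, those of red cells at 2.04, 13.4 and 27.5 CPM, and of the T cell markers Trac alone had UMIs in naïve and ischemic cells, at 16.3 and 45.8 CPM. The part of these transcripts in the results below was not tested, except where a value without a named cell is given.

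Depth and animals differed along with the condition. The cells held 490034, 8629183 and 218420 UMIs in all. The median per cell was 7834 UMIs (range 647 to 15459) in naïve, 10561 (1263 to 19869) in physical injury and 2831 (730 to 16780) in ischemic injury cells, whereas the remaining ischemic cells had a median of 9300. A gene at 100 CPM therefore rests on about 50, 863 and 22 UMIs in the 3 libraries. Mitochondrial transcripts took a median of 4.54%, 5.06% and 6.37% of UMIs. Ddx3y, a Y-linked helicase gene, was at 59.2 CPM in naïve and 79.3 CPM in physical injury cells but had 1 UMI (4.58 CPM, 0.12 to 25.5) in the ischemic cells, where Eif2s3y, Uty and Kdm5d, also Y-linked, had 0 UMIs. Xist, transcribed from the inactive X of females, was at 345, 311 and 632 CPM. In the remaining ischemic cells Ddx3y was at 41.3 CPM and Xist at 389 CPM, so the near absence of Y-linked transcripts was seen in the smooth muscle cells of that library and not in its other cells. Depth, sex makeup and injury cannot be told apart for these 47 cells.

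The first question was how large a part of the tdT+ cells they formed. They were 9.18% of the naïve cells (63 of 686, 7.13 to 11.6, exact Clopper-Pearson), 21.5% after physical injury (827 of 3845, 20.2 to 22.8) and 2.30% after ischemic injury (47 of 2047, 1.69 to 3.04). The 3 intervals do not overlap. The share after physical injury was 12.3 percentage points above naïve (9.59 to 14.8), and the share after ischemic injury differed from naïve by -6.89 points (-9.38 to -4.70). Both differences use the same naïve library. A share depends on what else was sorted: endothelial cells made up 23.2%, 46.5% and 72.7% of the 3 libraries. Among clusters 1 and 2 alone, the smooth muscle cells and canonical pericytes, they were 21.8% (63 of 289, 17.2 to 27.01), 65.6% (827 of 1260, 62.9 to 68.3) and 35.3% (47 of 133, 27.3 to 44.1), so on that denominator, chosen after seeing the data, the ischemic share was above the naïve one. With cluster 4, the vascular-genic pericytes of the study, added they were 14.1%, 51.4% and 17.0%, but that cluster held few pericyte transcripts in the injured libraries: Vtn was there at 7549 CPM in naïve, 37.7 CPM in physical and 9.98 CPM in ischemic cells. Limited to cells with at least 5000 UMIs, the shares were 16.1%, 28.3% and 0.95%. In the NG2 line they were 11.7%, 9.44% and 7.72%, and physical injury differed from naïve by -2.24 points (-3.73 to -0.713).

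**Figure D2:**
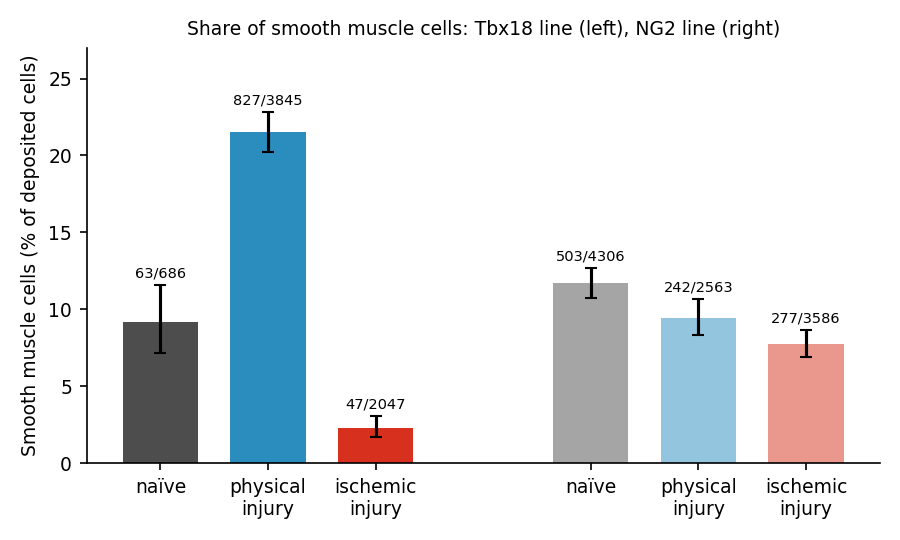
Smooth muscle cells as a percent of the deposited cells (y axis) in each library (x axis), Tbx18 line on the left and NG2 line on the right, with the counts above the bars and 95% exact binomial intervals as error bars. The Tbx18 bars stand at 9.18%, 21.5% and 2.30%, the NG2 bars at 11.7%, 9.44% and 7.72%.

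The contractile apparatus was described next. After physical injury all 20 of its genes with at least 20 CPM on average were higher than in naïve cells, with a median log2 ratio of 0.52 against -0.08 over all 6419 genes at that level. Ratios here and below carry a pseudocount of 10 CPM, and "past the fold" means a ratio of at least 2 either way. Csrp1 (a LIM protein of actin bundles) was at 635 CPM in naïve, 1602 CPM in physical and 966 CPM in ischemic cells. Csrp1 and Cnn1 were past the fold in physical injury cells, 2 of 20 genes, where 1.23% of all genes were past it upward. After ischemic injury 15 of 20 were higher than in naïve cells, with a median of 0.38 against 0.01 and 1 past the fold (Cnn1), beside 4.08% of all genes. Cnn1 had 25 UMIs in ischemic cells, 36.0% of them in 1 cell, and without that cell it was at 77.5 CPM, within the fold of naïve. The summed level of the list, in log2 without a pseudocount, was 0.60 above naïve after physical injury (0.57 to 0.62). After ischemic injury it was 0.37 above (0.34 to 0.40). These intervals leave out the spread between cells. Without the ischemic cell richest in endothelial transcripts the second value was 0.47, and with the mean of per-cell CPM it was 0.66, both outside its interval.

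Part of this changed among cells poor in pericyte transcripts. With pericyte markers under 0.5% of UMIs, which left 24, 679 and 14 cells, the summed level was 0.30 above naïve after physical injury and, as in all cells, 0.37 above after ischemic injury. In the same cells Acta2 was at 11371, 14402 and 16315 CPM. Ischemic against physical injury cells, the summed level differed by -0.22 over all cells and by 0.076 among the cells poor in pericyte transcripts. In that comparison 1 of 20 genes, Synpo2 (an actin-binding protein), was past the fold downward, beside 2.9% of all genes, at 225 CPM in physical and 105 CPM in ischemic cells. In the NG2 line the summed level after physical injury was 0.07 above naïve, and after ischemic injury it differed by -0.01.

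**Figure D3:**
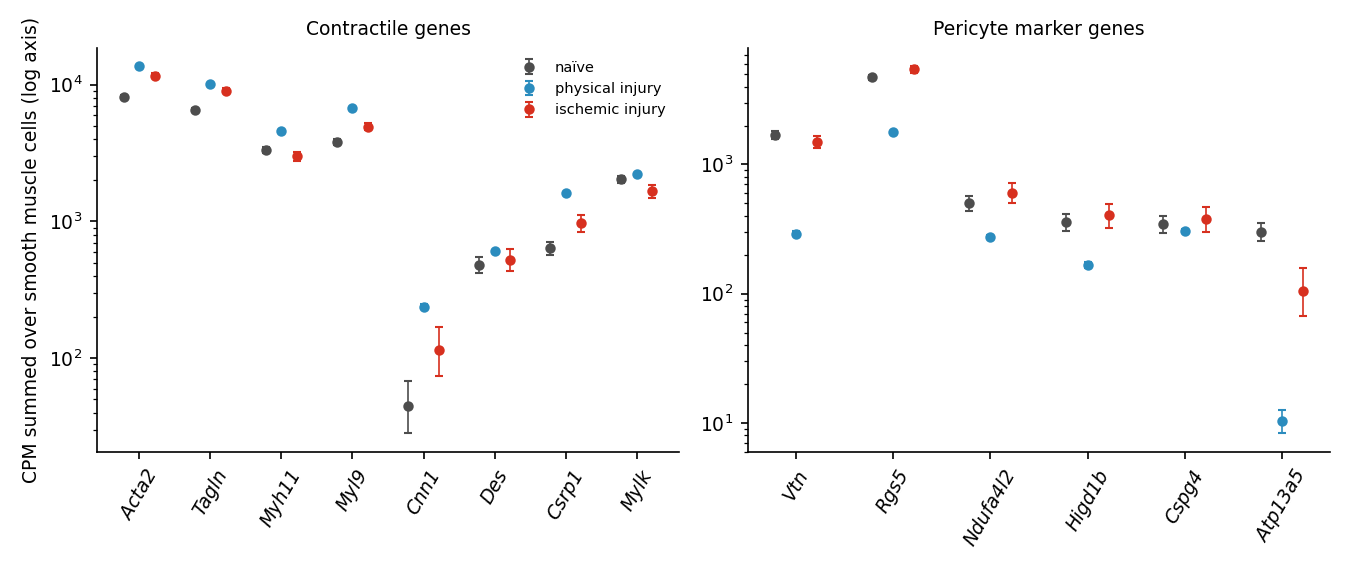
Level (CPM summed over the smooth muscle cells, log axis) of 8 contractile genes and 6 pericyte marker genes (x axes) in the naïve, physical injury and ischemic injury libraries of the Tbx18 line, with exact 95% Poisson intervals. Contractile genes such as Acta2 and Csrp1 are lowest in naïve cells, and Vtn, Rgs5 and Atp13a5 are lowest in physical injury cells.

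Of 14 regulators of the contractile state at level, 0 were past the fold in any comparison, where between 1.23% and 5.92% of all genes were past it each way, and the medians were -0.14 for physical injury and -0.13 for ischemic injury against naïve. Myocd (myocardin) was at 251, 273 and 197 CPM, Notch3, the receptor that keeps mural cells mature, at 969, 568 and 989 CPM, and Tbx18 itself at 98.0, 91.5 and 156 CPM. Of 8 genes typical of arteriolar smooth muscle, 6 were higher after physical injury than in naïve cells (median 0.35) and 6 after ischemic injury (median 0.09). Pln (phospholamban, the brake of the calcium pump) was at 682, 1129 and 700.5 CPM.

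Genes of constriction and relaxation were in part lower in the injured libraries, which were set against the same naïve cells. These lists share Abcc9, Kcnj8 and Rgs5 with the pericyte markers, whose median was -1.40 after physical and 0.12 after ischemic injury. Of 19 ion channel and calcium genes, 15 were lower after physical injury and 15 after ischemic injury, with medians of -0.62 and -0.69, and of -0.47 and -0.78 among cells poor in pericyte transcripts. The lowest ratio after physical injury, -2.48, was that of Abcc9, a potassium channel subunit of pericytes. Past the fold were 5 downward and 1 upward after physical injury, beside 4.00% and 1.23% of all genes, and 3 downward and 0 upward after ischemic injury, beside 5.92% and 4.08%. Ano1 (a calcium-activated chloride channel) was at 506, 210 and 293 CPM, and Trpc6 (a cation channel) at 95.9, 36.4 and 54.9 CPM. Ryr2 (the calcium release channel) was the gene past the fold upward, at 65.3, 151 and 82.4 CPM. Cacna1c (the L-type calcium channel) was at 775, 536 and 623 CPM. In the NG2 smooth muscle cells the medians of the list were -0.06 after physical and -0.09 after ischemic injury.

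Endothelin and nitric oxide genes had medians of -0.45 and -0.35 over 13 genes, of which 1 and 5 were above naïve and 1 in each comparison was past the fold downward, beside 4.00% and 5.92% of all genes, and of -0.33 and -0.35 among cells poor in pericyte transcripts. The lowest ratio after physical injury, -1.40, was that of Rgs5. Ednra, the endothelin receptor that constricts, was at 318, 226 and 353 CPM, and both subunits of the nitric oxide receptor, Gucy1a1 and Gucy1b1, were at 610, 579 and 696 CPM and at 643, 441 and 650 CPM. Prkg1, the kinase that cyclic GMP activates, was at 3508, 2202 and 1543 CPM and was the 1 gene past the fold downward in ischemic cells. Among cells poor in pericyte transcripts Prkg1 was at 3338, 2127 and 1550 CPM. The medians of the list in the NG2 smooth muscle cells were -0.10 after physical and -0.08 after ischemic injury.

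The comparison of physical injury with naïve cells set the saline-injected library beside the uninjured library. The cells of these libraries also differed in depth and in pericyte transcripts, so the part of the wound alone cannot be told apart. Of 2013 genes with at least 100 CPM in either group, 27 (1.34%) were past the fold upward and 112 (5.56%) downward. Of the 112, 78 were higher in the remaining cells of the naïve library than in its smooth muscle cells, against 34 that were at least as high in smooth muscle. Each such split was made in the library where the genes are higher, so the change itself helps decide it. The share over all tested genes is not given here. Of the 27 upward genes, 23 were at least as high in smooth muscle cells as in the remaining physical injury cells. The largest ratios among these were those of Id2 (an inhibitor of differentiation factors), Cnn1, Adamts4 (a matrix protease), Eln (elastin), Irf1 (an interferon regulatory factor), Igfbp4, Sdc4 (syndecan 4) and Sh3bgr, with log2 ratios from 2.18 to 1.34.

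Eln was at 46.9 CPM (29.8 to 70.4) in naïve and 178 CPM (169 to 187) in physical injury cells. Irf1 was at 131 and 439 CPM, and Adamts4 at 51.0 and 216 CPM. These genes were higher after physical injury also among cells poor in pericyte transcripts, where Eln was at 75.3 and 204 CPM, Irf1 at 180 and 476 CPM and Adamts4 at 62.8 and 219.6 CPM. Of the 27 upward genes, 11 were past the fold also in those cells, and of the 112 downward genes 27 were. Of the 8 genes with the largest ratios, 5 were past the fold in cluster 2, the canonical pericytes of this line. In its endothelial cells, cluster 0, 0 were past it. In the NG2 line 7 of the 8 had the same sign and 0 were past the fold. Id2 differed there in sign (-0.41). The share of all genes past the fold in cluster 2, cluster 0 and the NG2 cells is not given here, so these counts cannot be weighed. Of the genes higher in other cells, S100a6 (a calcium-binding protein) was at 30.6 and 225 CPM, beside 44.3 and 792 CPM in the remaining cells, and Slc38a2, Bhlhe40 and Rbm3 had log2 ratios of 1.66, 1.14 and 1.11.

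The lowest ratios after physical injury belonged to genes that were higher in the remaining naïve cells. Grm7 (a glutamate receptor) was at 278 CPM in naïve and 5.91 CPM in physical injury cells, and at 1156 CPM in the remaining naïve cells. Atp13a5 (a pericyte ATPase) was at 302 and 10.3 CPM, Ptn (pleiotrophin) at 539 and 41.8 CPM, and Lin7a at 314 and 22.2 CPM. Vtn (vitronectin) was at 1684 CPM (1571 to 1802) and 292 CPM (280 to 303), and 5 of the 7 pericyte markers at level were past the fold downward, beside 4.00% of all genes. In cluster 2, the canonical pericytes, Grm7, Atp13a5, Ptn and Lin7a had ratios of -1.13, -0.92, -0.62 and -0.80 in the same comparison. Among smooth muscle cells poor in pericyte transcripts, Vtn was at 264 and 166 CPM, while Grm7 had 0 UMIs in the 24 naïve cells and was at 3.58 CPM in physical injury cells, too low for a ratio. Vtn was also found in endothelial cells, which should lack it, at 1192 CPM in the naïve, 38.8 CPM in the physical injury and 5.46 CPM in the ischemic library. What free RNA adds to the smooth muscle values was not tested.

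Other lower genes were at least as high in smooth muscle cells as in the remaining naïve cells. Of the 8 named genes of this kind, 5 were past the fold in the endothelial cells of cluster 0 and 2 in cluster 2. In the NG2 smooth muscle cells 5 had the same sign and 0 were past the fold downward. These counts also lack the share over all genes in those cells. Magi2 (a scaffold protein) was at 384, 148 and 54.9 CPM. Hecw2 (a ubiquitin ligase) was at 106 and 22.9 CPM, and Efhd2 and Pkia had log2 ratios of -1.41 and -1.36. A330015K06Rik, an antisense transcript, was at 153, 52.6 and 27.5 CPM. Rpl9, Rpl9-ps6 and Rpl10-ps3 were also among the lowest (-1.62, -2.18 and -1.88), but reads of ribosomal protein genes and their copies may be split between them, and these values are uncertain. Hspa1a and Hspa1b, inducible chaperones that are near-identical copies, were at 1149, 422 and 362 CPM and at 404, 103 and 105 CPM, lower in both injured libraries.

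The comparison of ischemic injury with naïve cells gave 69 genes past the fold upward (3.16% of 2181) and 144 downward (6.6%). At 100 CPM a level rests on about 50 naïve or 22 ischemic UMIs, so these numbers include counting error and are no count of changed genes. Of the 144, 98 were at least as high in smooth muscle cells as in the remaining naïve cells. The change itself helps decide this split, and the share over all 2181 genes is not given here. Among the higher genes, Mgp (matrix Gla protein, which keeps vessel walls from calcifying) was at 1555 CPM (1447 to 1669) in naïve, 1830 CPM in physical and 4894 CPM (4605 to 5197) in ischemic cells. One ischemic cell held 38.1% of those Mgp UMIs, and without it the level was 3199 CPM. Ccn2 (connective tissue growth factor) was at 147, 106 and 426 CPM. Lgals1 (galectin 1) was at 259, 493 and 742 CPM and S100a11 at 363, 595 and 993 CPM, both lowest in naïve and highest in ischemic cells.

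Eln, Nbdy (an X-linked gene), Cdk8 and March5 were the other leading genes, with log2 ratios of 1.62, 1.52, 1.42 and 1.36. Eln was at 165 CPM in ischemic cells, from 9 cells, 1 of which held 38.9% of its UMIs, and at 107 CPM without that cell. In the NG2 line the ratio of Mgp was 0.95, of Lgals1 0.51, of S100a11 0.68, of Ccn2 0.03, of Eln -0.49 and of Cdk8 3.00. Among cells poor in pericyte transcripts Mgp was at 1305, 1694 and 3655 CPM, Ccn2 at 142, 108 and 462 CPM, and Lgals1 at 209, 499 and 955 CPM.

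The list of modulated smooth muscle shows the same in number. Of 13 of its 24 genes at level, 9 were past the fold upward in ischemic against naïve cells, beside 4.08% of all genes, and 1 downward, with a median of 1.48. After physical injury 4 were past it upward and 0 downward, beside 1.23% and 4.00%, with a median of 0.90. Vim (vimentin) was at 1492, 2901 and 2514 CPM and S100a6 at 30.6, 225 and 233 CPM. Col8a1 and Col3a1, collagens of the vessel wall, were at 14.3, 60.5 and 82.4 CPM and at 26.5, 34.9 and 68.7 CPM. One ischemic cell held 55.6% of the Col8a1 UMIs and 1 held 6 of the 15 Col3a1 UMIs, and without the cell richest in each they were at 39.3 and 41.8 CPM. Spp1, Tnc, Lum and Dcn, which mark strongly modulated or fibroblast-like cells, were below 7 CPM in every library. Some of the list are not specific: Ly6a, also an endothelial gene, drew 28 of its 29 ischemic UMIs from the 1 cell rich in endothelial transcripts, and 1 cell gave 68.8% of Fn1. With the ischemic cell richest in each gene left out, 5 of the 9 were still past the fold and Lgals3, Fn1, Col3a1 and Ly6a were not, a choice made after seeing the data that lowers ischemic levels. The median was then 0.67 with 3 genes past the fold downward, and against physical injury cells -0.28, with 0 genes past it upward and 4 downward, where in all cells it was 0.58 with 3 and 2. Cells were left out of the ischemic library alone, which lowers its levels, so this cannot decide the order of the injured libraries in the list. The median without the endothelial-rich cell was 1.36, and in cluster 2 it was 1.92 and in the NG2 smooth muscle cells 0.49.

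Of the 69 genes past the fold upward, 43 were past it also without that cell. The 4 largest ratios among genes higher in the remaining cells were those of Cldn5, Ly6a, Ptprb and Plcb1. Cldn5 (the tight junction protein claudin 5) was at 8.16, 47.2 and 325 CPM, and at 9.92 CPM in ischemic cells without it. Ly6a and Ptprb had 0 UMIs in naïve cells and 133 and 124 CPM in ischemic cells, 4.96 and 14.9 CPM without it. Plcb1 was at 6.12, 60.03 and 179 CPM, and 74.4 CPM without it. For Cldn5, Ly6a and Ptprb the group value is thus mostly the value of 1 droplet.

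**Figure D4:**
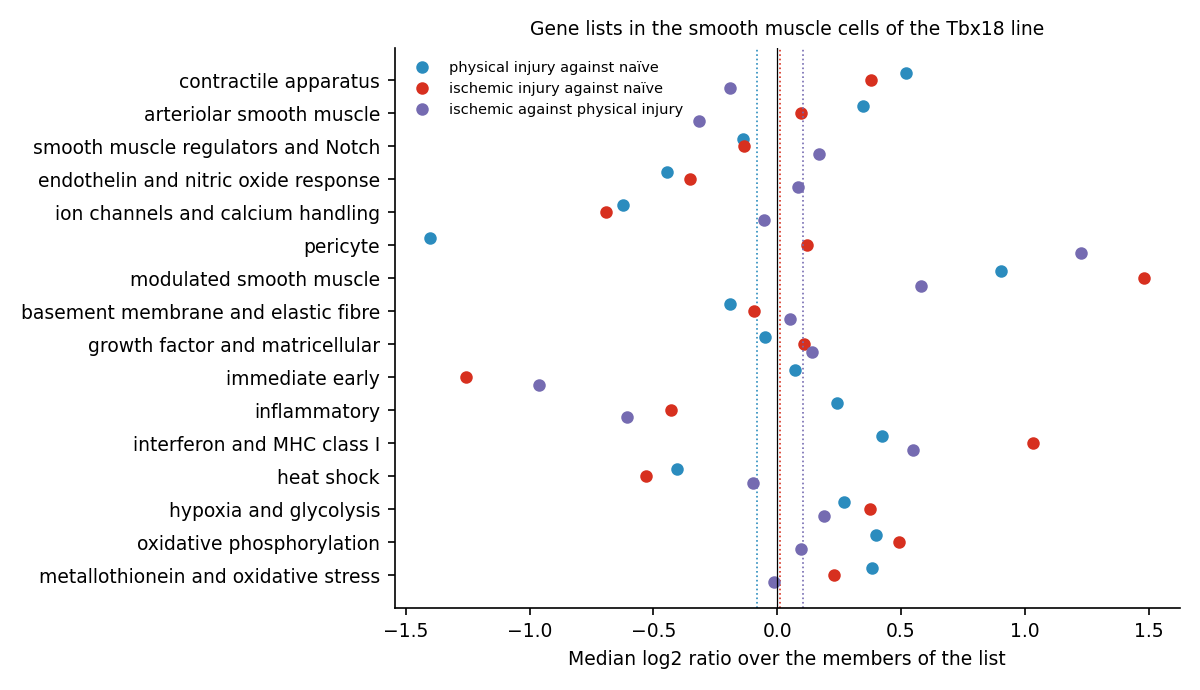
Median log2 ratio (pseudocount 10 CPM, x axis) over the genes at level of 16 lists (y axis) in the smooth muscle cells of the Tbx18 line, for physical injury against naïve, ischemic injury against naïve and ischemic against physical injury. Dotted lines mark the medians of all 6419 genes; immediate early genes stand at -1.26 and modulated smooth muscle at 1.48 for ischemic injury against naïve.

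Genes of the immediate early response were lower in ischemic cells. These encode transcription factors and feedback proteins that are switched on within minutes by many stimuli, tissue dissociation among them. All 17 genes at level were below naïve and below physical injury cells, with medians of -1.26 and -0.96. Past the fold downward were 9 against naïve, beside 5.92% of all genes, and 8 against physical injury, beside 2.9%. None was past it upward. Physical injury and naïve cells had a median ratio of 0.07, with 0 past the fold either way.

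Fos was at 9879 CPM (9603 to 10161) in naïve, 8559 CPM (8498 to 8621) in physical and 5521 CPM (5214 to 5842) in ischemic cells. Jun was at 5551, 3728 and 2033 CPM, Junb at 4949, 5234 and 2019 CPM, and Egr1 at 4522, 3364 and 1319 CPM. Atf3 was at 2839, 2785 and 1103 CPM, Nr4a1, a nuclear receptor, at 1353, 1561 and 554 CPM, and Btg2, an inhibitor of proliferation, at 1965, 2247 and 765 CPM. For each of these 7 genes the ischemic interval lay below those of the other libraries, but these intervals leave out the spread between cells. Klf2 and Klf4, shared with flow and modulation programmes, were closer, at 1208, 1599 and 1103 CPM and at 922, 989 and 655 CPM, and 1 ischemic cell held 36.5% of the Klf2 and 40.6% of the Klf4 UMIs.

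The ischemic cells fell into unequal parts in this respect. Immediate early genes took a median of 4.17%, 3.88% and 0.766% of a cell's UMIs, and were under 1% in 6 of 63 naïve cells (9.52%), 22 of 827 physical injury cells (2.66%) and 25 of 47 ischemic cells (53.2%, 38.1 to 67.9). The 25 ischemic cells had a median of 1765 UMIs and 1.59% pericyte transcripts. The other 22 had 4881 UMIs and 0.301%. The same order was seen at low depth: among cells under 5000 UMIs the medians were 3.44%, 3.22% and 0.603%. Ischemic cells with at least 10000 UMIs, 7 in number, had 2.26%, beside 4.62% and 3.79% in naïve and physical injury cells. Smooth muscle cells of the NG2 line under 5000 UMIs were also low in these genes, with medians of 1.70%, 0.695% and 2.11%. Of these NG2 cells 35.5%, 53.3% and 25.8% were under 1%, most often after physical injury.

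The median ratio against naïve was -1.14 among cells with at least 5000 UMIs and -0.67 among cells poor in pericyte transcripts, where 14 ischemic cells remained. In the canonical pericytes of cluster 2 the ischemic median was 0.28 above naïve, and in the endothelial cells of cluster 0 it was -0.24. In the smooth muscle cells of the NG2 line it was -0.04, with per-cell medians of 3.71%, 3.16% and 3.37%. Whether the difference of these medians exceeds the spread between animals was not tested.

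**Figure D5:**
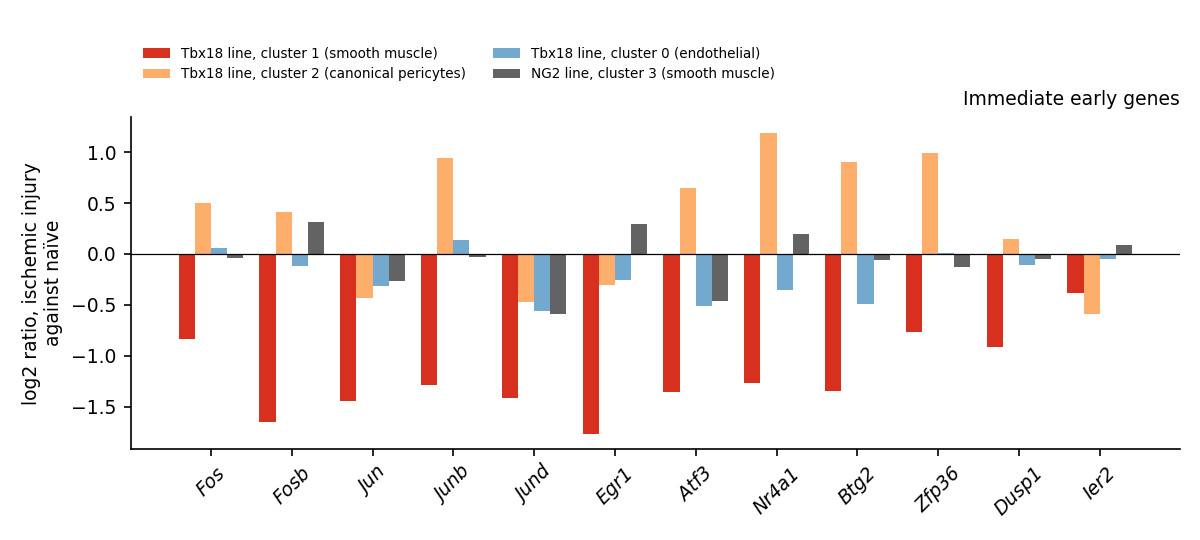
Log2 ratio of ischemic injury against naïve (pseudocount 10 CPM, y axis) of 12 immediate early genes (x axis) in the smooth muscle cells, canonical pericytes and endothelial cells of the Tbx18 line and in the smooth muscle cells of the NG2 line, 1 library per condition. The bars of the Tbx18 smooth muscle cells are below 0 for all 12 genes, while those of the other cells lie on both sides of 0.

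Of the other named genes lower in ischemic cells, Arih1 (a ubiquitin ligase) was at 1498, 1643 and 366 CPM, with 290 to 456 as the ischemic interval, and in the remaining cells of the libraries it was at 321, 331 and 340.5 CPM. It was thus a gene high in smooth muscle cells of the naïve and physical injury libraries and near the level of other cells in the ischemic library. Ell2 (a transcription elongation factor), Kdm6b (a histone demethylase), Usp37 (a deubiquitinase) and Cwc25 (a splicing factor) had log2 ratios of -2.37, -2.35, -2.34 and -2.24, each on 3 to 7 ischemic UMIs. Magi2 stood at -2.60. Cxcl1, a chemokine, was at 131, 69.2 and 18.3 CPM, but 1 naïve cell held 62.5% of its UMIs, and without that cell it was at 50.4 CPM.

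Inflammatory genes were lower in ischemic cells in part. Cebpb was at 2098, 3641 and 1424 CPM, Cebpd at 427, 459 and 110 CPM, and Socs3, the feedback inhibitor of cytokine signalling, at 792, 860 and 362 CPM. Of 11 genes of this list at level, 0 were past the fold after physical injury (median 0.24) and 3 were past it downward after ischemic injury (median -0.43), beside 5.92% of all genes. The cytokines Ccl2, Ccl7, Cxcl10 and Il33 had at most 7 UMIs in any library. The ischemic median of the list was 0.42 in the NG2 smooth muscle cells, 1.64 in cluster 2 and 0.38 in cluster 0.

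Of 10 interferon-induced and MHC class I genes at level, 9 were above naïve in ischemic cells, with a median of 1.03, and 5 were past the fold upward, beside 4.08% of all genes. With the ischemic cell richest in each gene left out the median was 0.68 and 4 of the 5 were still past it. Ifitm3 was at 259 CPM (216 to 308) in naïve, 366 CPM in physical and 659 CPM (556 to 776) in ischemic cells. B2m, the light chain of MHC class I, was at 137, 121 and 298 CPM, but 1 ischemic cell held 33.8% of its UMIs, and at 213 CPM without that cell it was within the fold. H2-D1, a heavy chain of MHC class I, was at 216, 153 and 215 CPM, and Isg15 at 28.6, 74.3 and 119 CPM. After physical injury 3 of 10 were past the fold upward, beside 1.23% of all genes (median 0.42), with Irf1 the highest. Without the endothelial-rich cell the ischemic median was 0.76, and among cells poor in pericyte transcripts 0.78. It was 0.24 in the NG2 smooth muscle cells and 1.74 in cluster 2.

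All 20 genes of oxidative phosphorylation were above naïve after ischemic injury and 19 after physical injury, but with medians of 0.49 and 0.40 and 0 past the fold. Of 12 glycolysis and hypoxia genes 8 were above naïve after physical and 9 after ischemic injury, where 3 (Pgk1, Pkm and Slc2a1) were past the fold upward, beside 4.08% of all genes. Pgk1 and Pkm, enzymes of glycolysis, were at 40.8, 92.5 and 110 CPM and at 147, 228 and 348 CPM. Slc2a1, the glucose transporter, was at 28.6, 43.8 and 151 CPM, with 60.6% of its ischemic UMIs in the endothelial-rich cell, and at 64.5 CPM without it, within the fold of naïve. Heat shock genes had medians of -0.41 and -0.53, beside 0.13 and 0.24 in the NG2 smooth muscle cells. After ischemic injury 3 of 10 were past the fold downward (Hspa1a, Hspa1b and Dnajb1), beside 5.92% of all genes. Basement membrane genes had medians of -0.19 and -0.09, with 2 of 12 past it upward after physical injury (Eln and Col18a1), beside 1.23%, and growth factor genes of -0.05 and 0.11. Pdgfrb, the receptor for the platelet-derived growth factor that recruits mural cells, was at 578, 233 and 394 CPM. Col4a1, the main collagen of vascular basement membrane, was at 494, 471 and 481 CPM. Mt1 (metallothionein) was at 1055, 1453 and 426 CPM, while the median of its list was 0.38 and 0.23. Only 2 of 18 proliferation genes reached 20 CPM.

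The comparison of the injured libraries sets the ischemic library beside the physical injury library, without the naïve cells. Of 2046 genes, 63 (3.08%) were past the fold upward in ischemic cells and 85 (4.15%) downward. Of the 63, 8 were past it also among cells poor in pericyte transcripts and 27 also with cells holding 3 or more UMIs of other cell types left out. Downward, 79 of the 85 were at least as high in smooth muscle cells as in the remaining physical injury cells. These genes are high in that library by selection, and the share over all 2046 genes is not given here. Upward, pericyte transcripts led. Grm7 was at 5.91 CPM in physical and 174 CPM in ischemic cells, Slc6a20a (a proline transporter) at 4.98 and 101 CPM, Atp13a5 at 10.3 and 105 CPM, Vtn at 292 and 1488 CPM and Rgs5 at 1778 and 5448 CPM. The ischemic cell richest in each held 55.3% of the Grm7 and 56.5% of the Atp13a5 UMIs. Without that cell they were at 79.7 and 46.9 CPM. Plxdc2, Ptn and Car4 had log2 ratios of 1.86, 2.86 and 2.86, and 6 of 7 pericyte markers at level were past the fold upward, beside 3.46% of all genes. With pericyte-rich cells set aside, the ratios of Vtn, Rgs5, Ptn, Car4, Slc6a20a and Atp13a5 lay between -0.20 and -1.13, and that of Plxdc2 was 0.53, on 4 ischemic UMIs. Grm7, Slc6a20a, Atp13a5 and Car4 had 0 ischemic UMIs in these cells, so their ratios there follow the pseudocount. Vtn, Rgs5 and Atp13a5 are among the 8 genes that define these cells, so for them the limit on pericyte transcripts itself largely sets this.

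Casq2 (calsequestrin, the calcium buffer of the sarcoplasmic reticulum) was at 46.6 and 288 CPM, and at 27.4 and 30.8 CPM among cells poor in pericyte transcripts. Ccn2, in contrast, was at 106 and 426 CPM in all cells and at 108 and 462 CPM in these. Flt1 (a VEGF receptor) and Spock2 were at 58.1 and 494 CPM and at 28.9 and 233 CPM, but at 9.92 and 19.8 CPM in ischemic cells without the endothelial-rich cell. Of the lower genes, Adamts4 was at 216 CPM (207 to 227) and 13.7 CPM (2.83 to 40.1), and Thbs1 (thrombospondin 1) at 178 and 36.6 CPM. Txndc11, Maff, Usp37, Arih1, Ell2 and Ncapd3 had log2 ratios from -2.53 to -2.09. Pim1, a kinase that cytokines induce, had 1 UMI in ischemic cells and 123 CPM in physical injury cells, and Zfand5, Ier3 and Azin1 had ratios of -1.26, -1.19 and -1.06.

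In cluster 2 the ratios of Adamts4 and Thbs1 in this comparison were 0.21 and -0.48, and in the NG2 smooth muscle cells 0.41 and 0.85. Of the 8 genes named from Adamts4 to Ncapd3, 3 were past the fold in cluster 2 and 0 downward in the NG2 cells. The share over all genes in those cells is not given here. Adamts4 had 3 UMIs in all ischemic cells together. It was at 220.2 and 19.2 CPM in cells with at least 5000 UMIs and at 219.6 and 20.5 CPM in cells poor in pericyte transcripts. These ischemic values rest on the same few UMIs and are no separate support.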

How the data were processed

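The 6 libraries hold sorted tdT+/DAPI- cells and were run by the authors on the 10x Genomics 3' platform. Reads were mapped to mm10 with more than 1 version of Cell Ranger per the methods, the latest 7.0.0. Which version made which library is not given in the sources used here, and its part in differences between libraries was not tested. The deposited matrix gives raw UMI counts for each gene and cell. The study states cell filters of 200 genes, 12% mitochondrial reads and 2 SD of genes and UMIs. Applied again they would keep 48, 809 and 28 of the smooth muscle cells, and here all were kept. Cluster numbers are those of the authors' integration in Seurat, and the percent of mitochondrial reads in a cell was taken as deposited. Doublets are not mentioned in the methods, and none were removed here.

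Counts of the 937 cells were added up by library and scaled to CPM, with exact 95% Poisson intervals. Shares have Clopper-Pearson intervals. Log2 ratios carried a pseudocount of 10 CPM. Over all genes, past the fold meant a ratio of at least 2 with 100 CPM in the higher library, and list members needed 20 CPM on average over the 3 libraries. Named were the 8 largest ratios each way among genes at least as high as in the remaining cells of the higher library. The 4 largest among other genes were named too, together with members of the gene lists. Mitochondrial, Gm-numbered and some sex-linked genes were left out, but X-linked genes such as Nbdy and Rbm3 were kept. TMM factors (edgeR 4.0.16, R 4.3.3), one of the alternatives, shifted all ratios by 0.18, -0.05 and -0.23 in the 3 comparisons. The cells, lists and comparisons were chosen with earlier results of these data known. Gene positions are from GENCODE vM21 and promoters from RefSeq, which may differ from the authors' annotation. Scripts in Python 3.11.15 (scipy 1.17.1, with numpy 2.4.6 and pandas 2.3.3) were tested on simulated data. The physical and ischemic injury libraries shared 3 cell barcodes, 0 of them among smooth muscle cells. Values of some single genes of the lists are not reported here.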

Additional observations from a re-analysis of the deposited data

Results flagged for a closer look

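After physical injury the share of smooth muscle cells moved in opposite directions in the 2 lines. It was 12.3 percentage points above naïve in the Tbx18 line and differed by -2.24 points in the NG2 line. After ischemic injury it was below naïve in both lines, with differences of -6.89 points (Tbx18) and -3.96 points (NG2). Cxcl1 in ischemic against naïve cells had a log2 ratio of -2.31 in the Tbx18 line, on 64 and 4 UMIs, and of 1.30 in the NG2 line. In ischemic against physical injury cells, Grm7 had ratios of 3.53 and -1.07, Flt1 of 2.89 and -0.90, and Thbs1 of -2.01 and 0.85 in the Tbx18 and NG2 lines. With 1 library per line and condition, the difference between the lines was not tested for any of these. The value of Flt1 rests on 1 ischemic cell, that of Grm7 on cells rich in pericyte transcripts, 1 of which held 55.3% of its ischemic UMIs, and that of Cxcl1 in large part on 1 naïve cell with 62.5% of its naïve UMIs.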

How the results depend on the processing

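No paired analysis was possible because each condition has 1 library, so no test was made. Alternatives among clusters 1 and 2 alone, with cells of at least 5000 UMIs, with pericyte markers under 0.5% of UMIs or without the ischemic cell richest in endothelial UMIs were chosen after seeing the data. The difference in the share of smooth muscle cells between physical injury and naïve (12.3 points) was 15.2 with the study's filters applied again, 37.3 among clusters 1, 2 and 4, 43.8 among clusters 1 and 2, and 9.37 without cells holding 3 or more UMIs of other cell types. Ischemic against naïve (-6.89) it was -15.1 with at least 5000 UMIs, -2.81 with pericyte markers under 0.5% and -11.2 with each cell assigned by its own markers. Among clusters 1, 2 and 4 it was 2.90 (-2.65 to 8.75, an interval that includes 0). Among clusters 1 and 2 it was 13.5 (3.92 to 23.4). The denominator turned the sign of both. Ischemic against physical (-19.2) it was -21.1, -27.4, -34.4, -30.3, -14.8, -17.0 and -22.4 with the filters, at least 5000 UMIs, clusters 1, 2 and 4, clusters 1 and 2, other cell types' UMIs left out, pericyte markers under 0.5% and own markers.

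The counts past the fold follow the minimum level. At 50 CPM, 200 CPM and no minimum there were 55, 16 and 114 genes higher and 206, 63 and 378 lower in physical against naïve, 192, 25 and 603 higher and 279, 83 and 829 lower in ischemic against naïve, and 163, 27 and 459 higher and 131, 52 and 342 lower in ischemic against physical. TMM factors gave 55 genes higher in physical against naïve, and 39 higher and 129 lower in ischemic against physical. The mean of per-cell CPM gave 176 lower in physical against naïve, 232 higher and 407 lower in ischemic against naïve, and 159 higher and 175 lower in ischemic against physical. The study's filters gave 59 higher and 207 lower in physical against naïve. Cells with pericyte markers under 0.5% gave 53 lower in physical against naïve, and 159 higher and 251 lower in ischemic against naïve, from 14 ischemic cells. Cells with at least 5000 UMIs gave 104 higher in ischemic against naïve. Without the endothelial-rich cell 38 were higher in ischemic against physical. Thinned to the smallest sum, 64 were higher and 177 lower in physical against naïve and 110 higher in ischemic against physical.

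The summed contractile level, physical against naïve (0.60), was 0.78 with TMM, 0.70 with per-cell means, 0.84 with the filters, 0.55 without other cell types' UMIs, 0.57 with at least 5000 UMIs and 0.30 with pericyte markers under 0.5%. Ischemic against naïve (0.37) it was 0.33, 0.66, 0.54, 0.52 and 0.29 under the first 5 and 0.47 without the endothelial-rich cell. Ischemic against physical (-0.22) it was -0.45, -0.038, -0.30, -0.032, -0.27 and 0.076 under these 6, the last a reversal, and -0.13 without that cell.

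With pericyte markers under 0.5% these medians and ratios also turned: neuron genes to 0.77 (physical against naïve) and 0.53 (ischemic against naïve), endothelial genes to -0.79 (ischemic against naïve) and -1.93 (against physical), pericyte genes to -0.21, Grm7 to 0.44 (physical against naïve) and -0.44 (with 0 UMIs in naïve and ischemic cells, so that the pseudocount sets both), Slc6a20a to -0.20, Atp13a5 to -0.40, Vtn to -0.40, Rgs5 to -0.20, Flt1 to -1.93, Ptn to -1.13, Car4 to -1.07 and Spock2 to -1.03 (ischemic against physical). Without the endothelial-rich cell the endothelial median was -1.52, Flt1 -1.77 and Spock2 -0.38 against physical. Without cells holding other cell types' UMIs Cldn5 was -0.37 against naïve and Flt1 -0.46 against physical. With at least 5000 UMIs the proliferation median was -0.0073 (ischemic against naïve, 0.49 in all cells). Of 591 medians of lists under all alternatives, 7 reversed, 52 within 0.25 of 0 or of the median of all genes changed sign as well, and 95 others than the 7 moved by over 0.25. Of 648 ratios of named genes, 14 reversed and 152 moved beyond their counting interval. The cause of these changes was not tested. With 22 UMIs at 100 CPM, the ischemic cells limit every comparison that uses them.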

Other observations

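A few further genes of the smooth muscle cells, named after their values were seen and outside the rule for named genes, differed between the injured libraries. Crispld2, which encodes a secreted protein, was at 845 CPM in naïve, 1919 CPM in physical injury and 540 CPM in ischemic injury cells. Adamts1 (a matrix protease) was at 1190, 1421 and 385 CPM and Rrad (a GTPase that inhibits L-type calcium channels) at 1075, 1066 and 339 CPM. These 3 genes were lowest in ischemic cells, where 1 cell held between 24.3% and 29.8% of the UMIs of each. Ppp1r15a, a stress-induced phosphatase subunit, was at 1492, 1513 and 485 CPM, and Gadd45b, a stress gene, at 499.97, 1124 and 389 CPM. Carmn, a long non-coding RNA of smooth muscle cells, was at 83.7, 83.2 and 229 CPM and was highest in ischemic cells.

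The 86 ribosomal protein genes together were at 59851 CPM in naïve, 72099 CPM in physical injury and 77878 CPM in ischemic injury cells, beside 71346, 70680 and 78047 CPM in the NG2 line. Values of single genes of this group are uncertain where they have near-identical copies. Mitochondrially encoded transcripts were at 50499, 51132 and 54752 CPM.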
